A study of Homo sapiens with 6 samples.

Results

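The genes described here are the protein-coding genes of human chromosome 19 whose symbol is ZNF followed by a number and at most 1 letter, ZNF331 excepted. The expression table listed 58735 genes, and 245 of them met this rule. Of the 245, 117 reached 1 FPKM (fragments counted per unit of gene length and of sequencing depth) in at least 3 of the 6 libraries and were tested, among 13578 genes tested in all. The table assigned 237 of the 245 to the C2H2 zinc finger family.

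RNA was sequenced from cultures labelled BxPC-3, a human pancreatic adenocarcinoma line, after exposure to GSK3326595, an inhibitor of the arginine methyltransferase PRMT5 (3 libraries), or to DMSO, its solvent (3 libraries). All 6 libraries came from cells grown in RPMI-1640 with serum, and the libraries were made from total RNA with a strand-specific kit. The study's title concerns methylation of the Hippo kinase MST2 by PRMT5, and its design text speaks of a PRMT5 knockdown, while the library labels speak of the inhibitor. No source used here gives the dose or the exposure time, or says whether replicates were separate cultures, so p-values measure the spread between these libraries, which may be technical.

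C2H2 zinc fingers are small zinc-binding folds, each of which reads a few bases of DNA, and ZNF proteins carry them in tandem rows. Most ZNF proteins of chromosome 19 also carry a KRAB domain, which recruits TRIM28 (KAP1), the histone methyltransferase SETDB1 and HP1 proteins, and so places the silencing mark H3K9me3 on the sequences the fingers bind, many of them retrotransposons. The genes arose by repeated tandem duplication and stand in clusters on both arms of the chromosome. PRMT5 places symmetric dimethyl marks on arginines of histones, splicing factors and signalling proteins.

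To show where these genes begin, the RefSeq promoter windows (GRCh38.p14, 250 bases before to 50 after the start) of 4 genes called below are printed, 5′ to 3′ on the gene's strand. ZNF302 and ZNF91 were higher with the inhibitor, and ZNF787 and ZNF296 were lower. The windows lie at chr19:34677428-34677727 (plus strand) for ZNF302, chr19:23395422-23395721 (minus) for ZNF91, chr19:56121246-56121545 (minus) for ZNF787 and chr19:45076429-45076728 (minus) for ZNF296. Capitals mark matches in either orientation to CCGGAAG, the core bound by ETS factors, to GGGCGG, the core bound by SP factors, and to CACGTG, an E box.
ZNF302: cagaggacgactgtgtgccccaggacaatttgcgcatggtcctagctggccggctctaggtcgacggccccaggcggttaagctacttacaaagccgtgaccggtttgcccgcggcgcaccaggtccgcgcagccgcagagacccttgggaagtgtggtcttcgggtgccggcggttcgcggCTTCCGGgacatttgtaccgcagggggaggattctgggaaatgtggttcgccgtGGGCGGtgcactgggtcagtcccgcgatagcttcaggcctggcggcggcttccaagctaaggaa
ZNF91: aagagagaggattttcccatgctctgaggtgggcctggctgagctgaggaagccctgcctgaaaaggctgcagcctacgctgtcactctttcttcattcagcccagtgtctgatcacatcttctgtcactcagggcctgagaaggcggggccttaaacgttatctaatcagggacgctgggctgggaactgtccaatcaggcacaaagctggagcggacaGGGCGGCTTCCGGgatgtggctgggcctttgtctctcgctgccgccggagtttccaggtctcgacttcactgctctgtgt
ZNF787: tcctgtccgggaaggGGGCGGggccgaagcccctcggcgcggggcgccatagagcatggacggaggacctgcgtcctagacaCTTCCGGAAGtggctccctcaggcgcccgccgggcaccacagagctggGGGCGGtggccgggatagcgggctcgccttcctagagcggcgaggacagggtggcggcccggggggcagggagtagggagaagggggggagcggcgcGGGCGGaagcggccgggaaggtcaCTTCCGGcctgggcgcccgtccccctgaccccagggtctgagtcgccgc
ZNF296: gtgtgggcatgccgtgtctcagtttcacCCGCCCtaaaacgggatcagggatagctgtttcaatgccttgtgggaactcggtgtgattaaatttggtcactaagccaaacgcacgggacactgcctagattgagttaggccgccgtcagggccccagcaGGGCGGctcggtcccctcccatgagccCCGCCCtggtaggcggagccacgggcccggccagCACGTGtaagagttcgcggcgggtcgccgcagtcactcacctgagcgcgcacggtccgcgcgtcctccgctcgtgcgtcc
The windows of ZNF302, ZNF91 and ZNF787 hold CCGGAAG, and that of ZNF296 holds none. These letters are frequent in the whole group. RefSeq windows were matched for 214 of the 245 genes, and 98 of them (45.8%) held CCGGAAG on either strand, beside 34.6% of 211 ZNF genes of other chromosomes, 14.0% of 14682 other protein-coding genes and 10.7% of all 27305 windows. The match nearest the start lay at a median of -17.5 bases from it (quartiles -24 and 3.75). The median was -23 in ZNF genes of other chromosomes (quartiles -58 and -2) and -39 in other protein-coding genes. Of the 181 matched genes with a KRAB A box 49.7% held it, and of the 33 without one 24.2%. GGGCGG was present in 68.2% of the members' windows and 59.3% of those of other protein-coding genes, CACGTG in 4.21% and 9.004%, TGACGT (the core of a cyclic AMP response element) in 11.2% and 9.71%, and AAGATGG (the core bound by YY1) in 7.94% and 6.46%. CACGTG is its own reverse complement, and in the ZNF787 window matches to CCGGAAG on opposite strands overlap. The ratio of observed to expected CpG had a median of 0.765 in the members and 0.768 in other protein-coding genes. Among tested genes alone, CCGGAAG was in 49.5% of 103 members' windows and in 20.6% of 8352 windows of other protein-coding genes. In these sets GGGCGG was in 67.0% and 72.8%, and the CpG medians were 0.784 and 0.857, so both were lower in the members. CCGGAAG was in the windows of 4 of 7 matched members that were called and of 47 of 96 (49.0%) that were not (9 of 19 and 42 of 84 without inhibitor replicate 2, a library that stood apart, as described below), and the median log2 fold change of tested members was -0.01 with them and 0.03 without.

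The whole reads behind the FPKM values could be recovered, and the libraries held 14087260 to 15724750 reads with the inhibitor and 14201282 to 15302555 with DMSO. Inhibitor replicate 2 stood apart: its correlation with the other 2 inhibitor libraries over all tested genes was 0.904 and 0.906 on the log2 scale, against 0.980 to 0.983 between the other pairs of one group. Over the 117 tested members these correlations were 0.813 and 0.818, against 0.962 to 0.972. Its share of mitochondrial reads was 11.3%, against 5.84% and 6.03% for the other inhibitor libraries and 4.70% to 5.01% in DMSO libraries. The main counts below are therefore given with all 6 libraries and without this one. PRMT5 itself had 13.4, 12.8 and 12.1 FPKM with the inhibitor and 23.2, 24.6 and 26.2 FPKM with DMSO (log2 fold change -0.90, adjusted p = 0.00493), although an inhibitor need not change its target's transcript. Of 9 pancreatic ductal and epithelial markers looked at, KRT8, KRT18, KRT7 and MUC1 were high (361, 364, 103 and 48.3 FPKM on average with the inhibitor, and 264, 255, 163 and 21.8 FPKM with DMSO), EPCAM averaged 0.316 and 0.211 FPKM and CDH1 0.446 and 0.118 FPKM, and KRT19, CEACAM6 and PDX1 had no read in any library, which goes against the labelled line. The leukocyte and endothelial markers PTPRC and PECAM1 were at or near 0, while the mesenchymal VIM averaged 76.9 and 62.8 FPKM.

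Chromosome 19 ZNF genes were weakly expressed in these cells. Their reads made up 0.188%, 0.202% and 0.182% of all reads in inhibitor replicates 1 to 3, and 0.179%, 0.184% and 0.171% in DMSO replicates 1 to 3. The FPKM summed over all 245 was 353, 384 and 348 with the inhibitor and 346, 352 and 351 with DMSO, so inhibitor replicate 2 lay above the rest and the other libraries overlapped. The tested members had median values of 1.89, 2.24 and 1.82 FPKM with the inhibitor and 1.78, 1.90 and 1.80 FPKM with DMSO. The median tested member had 154 to 173 reads per inhibitor library and 146 to 154 per DMSO library. In bulk RNA a lower level per cell and fewer cells that express a gene cannot be told apart.

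Of the 128 members that were not tested, 40 had no read in any library and 88 had some, with a median highest value of 0.607 FPKM. For the 40, a limit of 3 reads over the 6 libraries corresponds to 0.00342 to 0.0190 FPKM, depending on gene length, and covers counting error only. ZNF649, a KRAB protein known to bind L1 retrotransposons, was among the 40 (limit 0.00754 FPKM). ZNF93, which represses a lineage of L1 elements, had a single read, in inhibitor replicate 2 (0.0134 FPKM). ZNF382 had 0.0216, 0.0462 and 0.0163 FPKM with the inhibitor and 0.0169, 0.00603 and 0.0239 FPKM with DMSO. The filter let through 10 members whose DMSO mean was under 1 FPKM and 8 whose inhibitor mean was. At least 1 FPKM was reached in every inhibitor library by 100 members and in every DMSO library by 97.

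A smaller share of chromosome 19 ZNF genes than of all genes tested was called with the inhibitor. At a Benjamini-Hochberg adjusted p under 0.05 in limma over all genes tested, 8 of 117 members (6.84%) were called, against 17.2% of all genes tested. Of the 8, 5 rose (ZNF302, ZNF324, ZNF91, ZNF266 and ZNF358) and 3 fell (ZNF114, ZNF296 and ZNF787); over all genes tested, 7.18% rose and 10.0% fell. The median log2 fold change of the 117 was 0.01, beside -0.05 over all genes tested, and the quartiles were -0.17 and 0.24. The median size of the change, regardless of sign, was 0.20 on the log2 scale, beside 0.32 over all genes tested, and 2 members (ZNF302 and ZNF114) passed 1. The members' median DMSO mean was 1.92 FPKM, beside 5.50 FPKM over all genes tested, and log2(FPKM + 1) shrinks changes of lower genes more. Without inhibitor replicate 2, 20 members (17.1%) were called, 8 higher and 12 lower, against 40.6% of all genes tested (17.5% higher and 23.1% lower). All 8 calls made with the 6 libraries were among the 20, with the same sign. The 3 inhibitor libraries and the 3 DMSO libraries did not overlap for 44 members (37.6%), against 45.9% of all genes tested. Of the 44, 30 were higher and 14 lower with the inhibitor, and over all genes tested 19.2% were higher and 26.7% lower. Of the 30, 5 had a DMSO mean under 1 FPKM and so needed inhibitor libraries to pass the filter. In that range 259 of 319 other protein-coding genes did not overlap, all of them higher.

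A gene that was not called is not shown to be unchanged. In limma-voom on the recovered reads, 14 members were called, 9 higher and 5 lower, the 8 among them. These are 11.97%, beside 21.7% of other protein-coding genes of similar DMSO level. Of the 103 that voom did not call, 76 had a 95% interval that stayed within a 2-fold change in either direction, and for 27 it reached further. Without inhibitor replicate 2 voom called 39 members (33.3%), beside 50.4% of other protein-coding genes of similar DMSO level. In that fit 73 of the 78 uncalled members stayed within 2-fold. FPKM values were tested as log2(FPKM + 1), so fold changes of these mostly low genes are understated and are smaller than the ratios of the FPKM values.

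**Figure D1:**
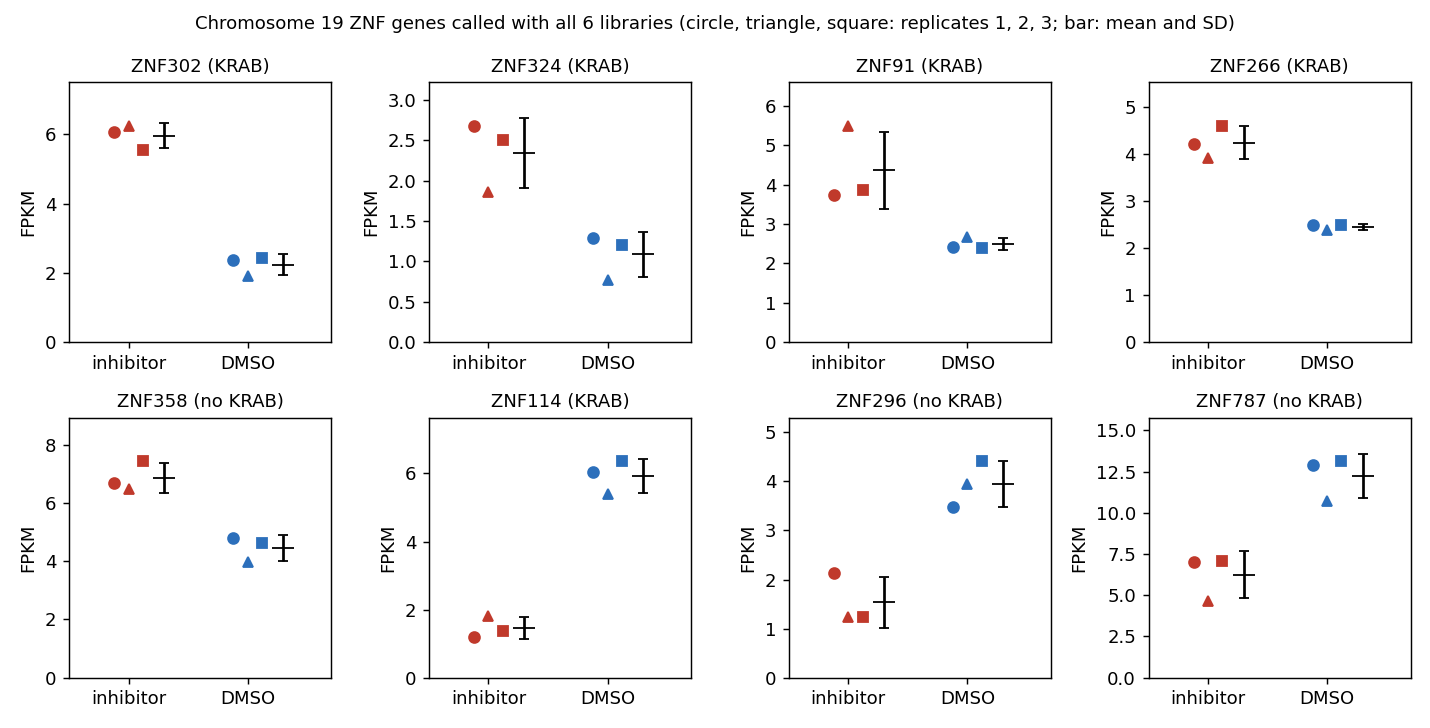
FPKM of the 8 called members in each library, inhibitor left and DMSO right, with the mean and SD (n = 3 each) as a bar beside the points; circles, triangles and squares are replicates 1, 2 and 3. In each panel the 3 inhibitor values lie wholly above or wholly below the 3 DMSO values.

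ZNF302 rose most. It is a KRAB protein with 7 fingers, at chr19:34677639-34686397 on the plus strand (hg38). Its level was 6.07, 6.25 and 5.56 FPKM with the inhibitor and 2.38, 1.90 and 2.44 FPKM with DMSO, so the highest DMSO library lay far below the lowest inhibitor library. The means were 5.96 ± 0.360 FPKM and 2.24 ± 0.296 FPKM (SD, n = 3 each), and the log2 fold change was 1.11 (SE 0.12, limma adjusted p = 0.00398). ZNF302 kept the call whichever library was dropped.

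The other 4 members that rose did so by less. ZNF91, a KRAB protein with 31 fingers that represses SVA retrotransposons in human cells, had 3.73, 5.50 and 3.86 FPKM with the inhibitor and 2.42, 2.68 and 2.40 FPKM with DMSO (chr19:23304991-23395560, minus strand). Its 3 DMSO libraries lay close together and its highest value was in inhibitor replicate 2. The log2 fold change was 0.60 (SE 0.15, limma adjusted p = 0.0431) with that library and 0.45 (adjusted p = 0.00942) without it. ZNF266, a KRAB gene at chr19:9412461-9435578 on the minus strand, had 4.22, 3.91 and 4.61 FPKM with the inhibitor and 2.48, 2.39 and 2.50 FPKM with DMSO. All 3 inhibitor values were more than 1 FPKM above the DMSO values, and the log2 fold change was 0.60 (SE 0.11, limma adjusted p = 0.0161).

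ZNF324, a KRAB gene near the end of the long arm (chr19:58467045-58475436, plus strand), had 2.68, 1.86 and 2.50 FPKM with the inhibitor and 1.29, 0.772 and 1.204 FPKM with DMSO. The groups did not overlap, and the lowest value in each was replicate 2. The log2 fold change was 0.68 (SE 0.17, limma adjusted p = 0.0373). ZNF358 was the 1 member without a KRAB A box that rose, at chr19:7515292-7521026 on the plus strand. It had 6.69, 6.46 and 7.44 FPKM with the inhibitor and 4.79, 3.96 and 4.64 FPKM with DMSO, again without overlap. Its log2 fold change was 0.53 (SE 0.12, limma adjusted p = 0.0281). When 1 library at a time was dropped, ZNF324, ZNF91, ZNF266 and ZNF358 each kept the call in 1 fit of 6, the one without inhibitor replicate 2, and lost it in the other 5.

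Among the members that fell, ZNF114 changed most of all 117. It is a KRAB gene that encodes only 3 fingers, at chr19:48270102-48287608 on the plus strand, and ZNF541, which was not tested, is the only other member within 1 Mb. It had 1.203, 1.82 and 1.37 FPKM with the inhibitor and 6.05, 5.38 and 6.36 FPKM with DMSO. Every inhibitor library was under 2 FPKM and every DMSO library above 5 FPKM. The means were 1.47 ± 0.320 FPKM and 5.93 ± 0.499 FPKM (SD, n = 3 each), and the log2 fold change was -1.50 (SE 0.14, limma adjusted p = 0.0029). ZNF114 likewise kept the call whichever library was dropped.

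ZNF296, which has no KRAB A box and whose mouse counterpart binds the pluripotency factor KLF4, had 2.13, 1.24 and 1.23 FPKM with the inhibitor and 3.48, 3.96 and 4.42 FPKM with DMSO (chr19:45071500-45076588, minus strand). These values rest on 61, 29 and 35 reads with the inhibitor and on 95, 101 and 114 reads with DMSO. The groups did not overlap, and the log2 fold change was -0.98 (SE 0.17, limma adjusted p = 0.0157). ZNF787, also without a KRAB A box, had 7.01, 4.62 and 7.10 FPKM with the inhibitor and 12.9, 10.7 and 13.1 FPKM with DMSO (chr19:56087366-56121280, minus strand). Replicate 2 was lowest in both groups, and all inhibitor values were below all DMSO values. Its log2 fold change was -0.89 (SE 0.18, limma adjusted p = 0.022). When 1 library at a time was dropped, both genes kept the call in 3 fits of 6.

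Inhibitor replicate 2 set the values of many other members. It was the highest of the 6 libraries for 54 of the 117 (46.2%), beside 31.9% of other protein-coding genes tested, and the lowest for 18 (15.4%), beside 38.8%. Of the 12 members called only without it, 9 fell (ZNF507, ZNF317, ZNF284, ZNF57, ZNF230, ZNF160, ZNF579, ZNF808 and ZNF574, log2 fold changes from -0.63 to -0.25). The other 3 rose (ZNF561, ZNF780B and ZNF146, from 0.37 to 0.45). Most of these names were chosen after their values were seen. ZNF780B had a DMSO mean under 1 FPKM, so inhibitor libraries, where it was higher, helped carry it past the filter. ZNF317, a KRAB gene, had 4.42, 6.36 and 4.66 FPKM with the inhibitor and 7.59, 7.58 and 6.99 FPKM with DMSO. Its groups did not overlap even so, and its log2 fold change was -0.46 (limma adjusted p = 0.0753) with the library and -0.60 (adjusted p = 0.0024) without it. Of the 117 members, 100 had the same sign of change with and without this library.

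The members were also set beside other protein-coding genes of similar DMSO mean FPKM. When the other genes were weighted to the members' numbers in 5 bins of DMSO level, 17.4% of them were called (12.3% higher and 5.14% lower), beside 6.84% of the members. This includes genes below 1 FPKM with DMSO, which could be tested only if inhibitor libraries helped carry them past the filter. Among genes with a DMSO mean of at least 1 FPKM, 8 of 107 members (7.48%) and 14.6% of the other genes (8.99% higher and 5.62% lower) were called, and 17.8% and 31.9% without inhibitor replicate 2. With all bins and without that library the shares were 17.1% of the members and 34.1% of the other genes (23.2% higher and 10.98% lower). The median size of the log2 fold change was 0.20 in the members and 0.28 in the other genes, and 0.17 and 0.26 without that library. In voom the shares were 11.97% of the members and 21.7% of the others, and the median sizes were 0.315 and 0.407. Against genes weighted to the members' GC content instead, the voom shares were 11.97% and 17.9%, and the sizes lay close together (0.315 and 0.330). Without inhibitor replicate 2 the GC-weighted voom shares were 33.3% and 50.4%, and the sizes were 0.276 and 0.289. The largest bin, 1 to 2 FPKM with DMSO, held 57 members, of which 1.75% were called, and 1119 other genes, of which 15.2% were. Between 2 and 4 FPKM the shares were 11.8% of 34 members and 12.5% of 1765 others. Between 4 and 8 FPKM, 2 of 10 members were called, and 15.6% of 2227 others. At 8 FPKM and over, 1 of 6 members (16.7%) and 19.2% of 5017 others were called. Without inhibitor replicate 2 the shares between 1 and 2 FPKM were 7.02% of members and 27.3% of others, and between 2 and 4 FPKM 20.6% and 33.6%. Between 4 and 8 FPKM they were 50% and 41.1%, and at 8 FPKM and over 50% and 51.0%. Under 2 FPKM the members' share was lower in both fits, and between 2 and 4 FPKM mainly without that library. The bins above hold too few members, 10 and 6, to place the difference by level. Below 1 FPKM, none of 10 members and 47.6% of 319 others were called. The members were chosen with earlier results known, so these shares describe the group and carry no test.

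**Figure D2:**
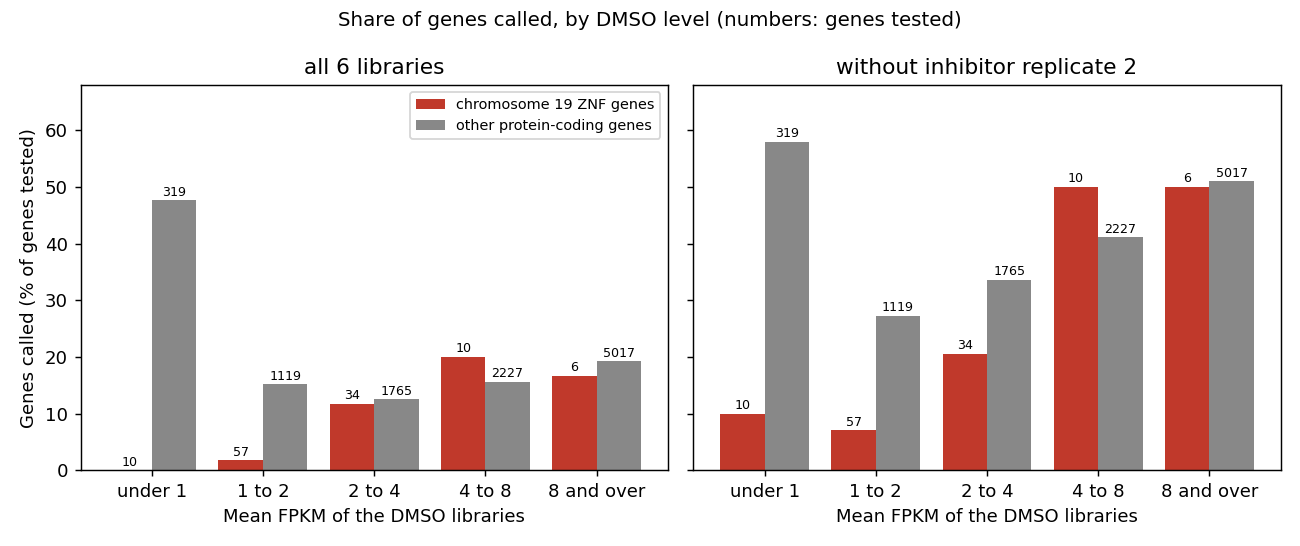
Share of genes called (%, vertical axis from 0) in bins of DMSO mean FPKM, for chromosome 19 ZNF genes (red) and other protein-coding genes (grey), with all 6 libraries (left) and without inhibitor replicate 2 (right); the numbers on the bars are genes tested. With all 6 libraries the members' bar is lower in the 3 bins up to 4 FPKM and higher between 4 and 8 FPKM, where there are 10 members. At 8 FPKM and over, with 6 members, it is slightly lower.

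The KRAB domain divided the members by level as well as by sequence. Read from the translated coding sequences of GENCODE 29, 210 of the 245 proteins held a KRAB A box and 35 did not. Of the 210, 94 (44.8%) were tested, and of the 35, 23 (65.7%). The tested genes with the box had a median DMSO mean of 1.64 FPKM, and those without it 5.18 FPKM. All 6 members with the highest DMSO mean (ZNF146, ZNF581, ZNF579, ZNF787, ZNF580 and ZNF121) lacked the box. Their transcripts were also richer in GC, with a median of 60.9% without the box and 42.4% with it.

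With the inhibitor, 5 of the 94 KRAB genes were called (4 higher and 1 lower) and 3 of the 23 others (1 higher and 2 lower). These are 5.32% and 13.04%, beside 17.2% of all genes tested and 17.9% and 15.6% of other protein-coding genes weighted to the DMSO levels of each class, so the share of the genes without the box lay near the background. The median log2 fold change was 0.06 for the KRAB genes, 54 of which were above 0, and -0.17 for those without the box, 8 of which were above 0. Without inhibitor replicate 2 the medians were 0.03 and -0.14, with 13 KRAB genes called (13.8%; 6 higher and 7 lower) and 7 others (30.4%; 2 higher and 5 lower), beside 40.6% of all genes tested. With trends on gene length and GC content removed they were 0.01 and -0.10, and with both changes 0.05 and -0.17. Other protein-coding genes weighted to the GC content of each class also differed, with medians of 0.01 for the KRAB class and -0.12 for the class without the box, and those weighted to its DMSO level had 0.15 and -0.04. These medians were -0.06 and -0.05 for GC content, and 0.12 and -0.05 for DMSO level, without inhibitor replicate 2. ZNF genes of other chromosomes differed in the same direction, with medians of 0.14 with the box (n = 80) and -0.06 without it (n = 92). Without inhibitor replicate 2 those were 0.10 and -0.08. Per library, the median departure of the KRAB members from their DMSO mean was 0.03, 0.22 and 0.00 in inhibitor replicates 1 to 3. That of the members without the box was -0.08, -0.28 and -0.09. Replicate 2 therefore held the highest median for KRAB genes and the lowest for the others, while other protein-coding genes had -0.05, -0.08 and -0.07.

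**Figure D3:**
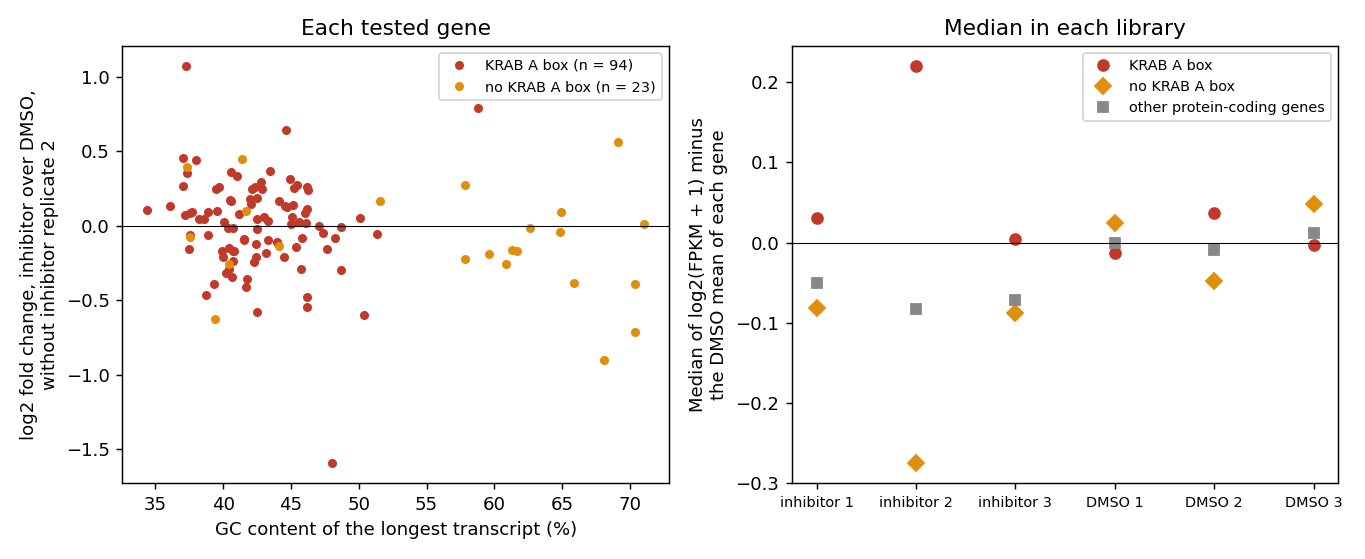
Left: log2 fold change (inhibitor over DMSO, without inhibitor replicate 2) of each tested member against the GC content (%) of its longest transcript, with a KRAB A box (n = 94) or without (n = 23). Right: median of log2(FPKM + 1) minus each gene's DMSO mean, per library, for both kinds of member and for other protein-coding genes; inhibitor replicate 2 has the widest gap, 0.22 against -0.28.

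The number of fingers, counted with the pattern C-x2-4-C-x12-H-x3-5-H, had a median of 12 and a maximum of 36 over the 245 proteins. Of the tested genes with at most 8 fingers, 4 of 29 were called, of those with 9 to 12 fingers 3 of 33, of those with 13 to 16 fingers 0 of 30, and of those with 17 or more 1 of 25, which was ZNF91, beside 17.2% of all genes tested. In the same order the counts were 7 of 29, 6 of 33, 2 of 30 and 5 of 25 without inhibitor replicate 2, beside 40.6% of all genes tested. No order among the classes was tested.

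Along the chromosome the 245 genes formed 16 groups when neighbours less than 1 Mb apart were joined. The group nearest the end of the long arm (chr19:55476332-58481230) was the largest, with 59 genes, 31 of them tested. In it ZNF324 rose and ZNF787 fell, and the median log2 fold change was -0.02; without inhibitor replicate 2, 1 gene was called higher and 2 lower. Its first 9 tested genes in chromosomal order, ZNF628 to ZNF444, all lack a KRAB A box. All 9 had a negative log2 fold change, from -0.89 to -0.16, and ZNF787 was the 1 called; without inhibitor replicate 2, 7 of the 9 were negative. This run was picked after its values were seen. The 10 other protein-coding genes tested in the same group had a median of -0.50, and of -0.33 without that library. The group at chr19:51571298-53496255 had 38 genes, 23 of them tested and a median of -0.01; none was called with all 6 libraries, and 2 were called lower without inhibitor replicate 2. Over all genes tested the called shares were 17.2% and 40.6%, as above, and the groups' counts are too small to be read against them.

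The pericentromeric group (chr19:19668796-24129961), which holds ZNF91, ZNF93 and ZNF675, had 37 genes. In it 13 genes had no read in any library, 10 were tested and ZNF91 was called, in both fits, with a median of 0.21, or 0.12 without inhibitor replicate 2. The group at chr19:36182060-37817300 had 26 genes and 8 tested, none of them called with all 6 libraries and 1, ZNF146, called higher without inhibitor replicate 2. All 8 had positive log2 fold changes with all libraries (median 0.17) and without inhibitor replicate 2 (median 0.11). The group at chr19:43525497-45076588 had 24 genes and 16 tested; ZNF296 fell, and the median was -0.16, or -0.12 without that library, when 3 genes were called lower. The group at chr19:7069444-9793180 had 15 genes and 11 tested, of which ZNF358 and ZNF266 rose, with a median of 0.14. Without that library, 3 of the 11 were called higher and 1 lower, and the median was -0.01.

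**Figure D4:**
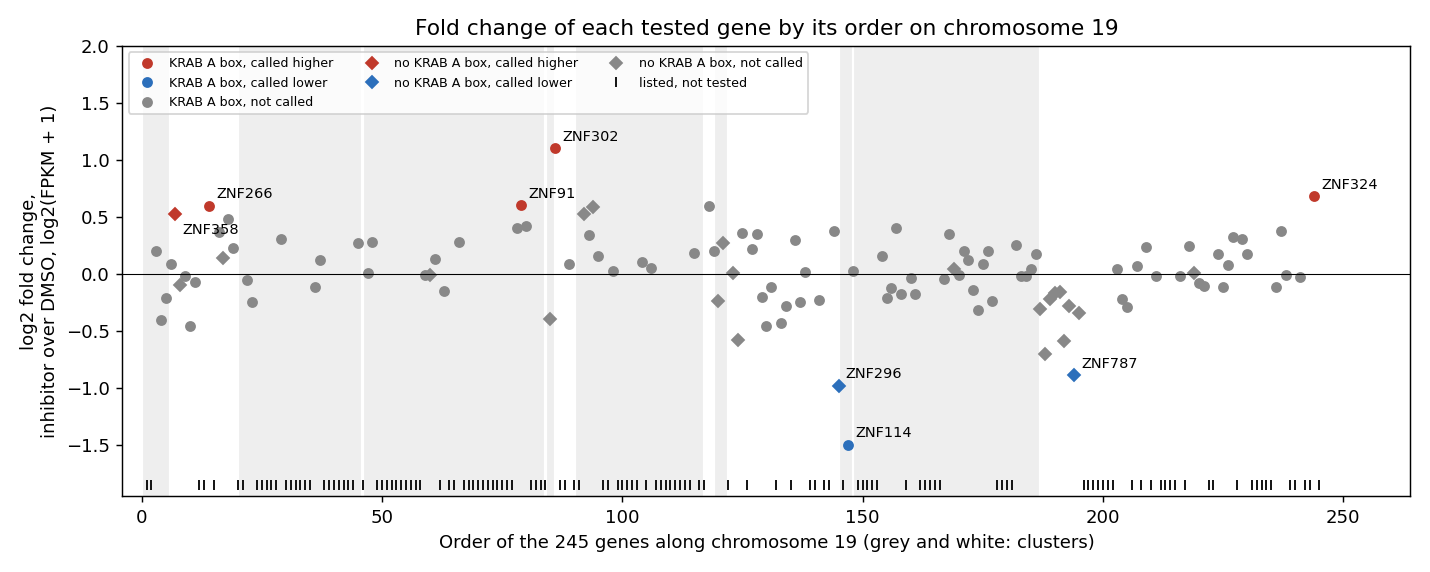
Log2 fold change (inhibitor over DMSO, log2(FPKM + 1), all 6 libraries) of the 117 tested members by their order among the 245 genes of chromosome 19, with grey and white bands for the 16 groups and ticks for genes not tested. Called genes are named and coloured; most points lie within 0.5 of 0, and called genes are spread over the chromosome.

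The same counts were taken for genes nearby and for other zinc finger genes. Of 66 other protein-coding genes tested inside the same groups, 16 were called (24.2%; 4 higher and 12 lower), and 34 (51.5%) without inhibitor replicate 2, with a median log2 fold change of -0.31 and -0.11. Of 637 other protein-coding genes tested on chromosome 19, 123 were called (19.3%; 35 higher and 88 lower), and 310 (48.7%) without that library, with medians of -0.26 and -0.10. Of 172 tested ZNF genes on other chromosomes, 20 were called (11.6%; 11 higher and 9 lower), and 55 (32.0%) without that library, with a median of 0.02. Of 13 other zinc finger genes of chromosome 19 that were listed, 2 were tested and neither was called. ZFP14 had 1.62, 1.41 and 1.28 FPKM with the inhibitor and 1.06, 0.786 and 0.907 FPKM with DMSO (log2 fold change 0.35, limma adjusted p = 0.118). ZFP30 had 1.16, 1.37 and 1.10 FPKM with the inhibitor and 0.738, 0.922 and 0.579 FPKM with DMSO (log2 fold change 0.34, limma adjusted p = 0.142). In both, every inhibitor library was above every DMSO library, while 45.9% of all genes tested did not overlap in either direction. For ZFP30, whose DMSO values were all under 1 FPKM, the filter itself required this. ZFP14 also needed inhibitor libraries to pass the filter.

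Of the 7 tested members that were named for a known role, ZNF91 was called with all 6 libraries, and ZNF91, ZNF146 and ZNF317 without inhibitor replicate 2. These shares are near those of all genes tested (17.2% and 40.6%). ZNF146 (OZF), a protein made almost wholly of fingers and described as overproduced in pancreatic carcinomas, was the most highly expressed member. It had 24.2, 26.7 and 20.9 FPKM with the inhibitor and 16.6, 18.1 and 14.1 FPKM with DMSO, without overlap. Its log2 fold change of 0.53 just missed the threshold with all libraries (SE 0.14, limma adjusted p = 0.0519) and passed without inhibitor replicate 2 (0.45, adjusted p = 0.029). ZNF274, which recruits SETDB1 to the 3′ ends of other ZNF genes, had 1.05, 0.986 and 1.46 FPKM with the inhibitor and 1.14, 1.31 and 1.56 FPKM with DMSO. Its groups overlapped and the log2 fold change was -0.11 (limma adjusted p = 0.624).

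ZNF224, a repressor of the aldolase A gene, had 2.04, 1.99 and 1.55 FPKM with the inhibitor and 2.30, 2.58 and 2.53 FPKM with DMSO. The groups did not overlap, but the log2 fold change of -0.28 was not called (limma adjusted p = 0.163). ZNF675, which restrains TRAF6 signalling, had 2.51, 3.02 and 2.57 FPKM with the inhibitor and 1.56, 2.10 and 1.64 FPKM with DMSO. It was higher in all 3 inhibitor libraries, with a log2 fold change of 0.42 (limma adjusted p = 0.0752). ZNF304 had 0.913, 1.69 and 1.01 FPKM with the inhibitor and 0.805, 1.33 and 1.13 FPKM with DMSO. Its groups overlapped, and the log2 fold change was 0.07 (limma adjusted p = 0.82) with all libraries and -0.08 without inhibitor replicate 2.

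Among the highly expressed genes without a KRAB A box, inhibitor replicate 2 lay far from the other 2 inhibitor libraries in ZNF121, ZNF579 and ZNF580. ZNF121 had 7.46, 16.8 and 6.31 FPKM with the inhibitor and 9.10, 8.90 and 7.25 FPKM with DMSO, so its log2 fold change of 0.14 (limma adjusted p = 0.796) became -0.25 without that library. ZNF579 had 10.7, 4.77 and 9.62 FPKM with the inhibitor and 12.6, 13.1 and 15.2 FPKM with DMSO (-0.70, limma adjusted p = 0.126, and -0.38, adjusted p = 0.0269, without the library). ZNF580 had 9.18, 3.03 and 8.02 FPKM with the inhibitor and 9.95, 8.24 and 11.3 FPKM with DMSO (-0.59, limma adjusted p = 0.288). Replicate 2 was the lowest inhibitor library for ZNF579 and ZNF580 and by far the highest for ZNF121. ZNF581, whose gene overlaps ZNF580 on the same strand, had 11.98, 11.1 and 15.6 FPKM with the inhibitor and 14.6, 14.9 and 18.0 FPKM with DMSO, with overlap (-0.28, limma adjusted p = 0.26).

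Few genes of a list of KRAB protein partners and other heterochromatin genes, the silencing list, were called. Of its 34 genes, 33 were tested and 2 were called (6.06%), beside 17.2% of all genes tested, and the median log2 fold change was -0.09. The list mixes opposing roles, since it holds the demethylases KDM4A, KDM4B, KDM4C and KDM4D. It also holds CTCF and ZNF274, which is itself a member. KDM4B, a demethylase of H3K9, rose. It had 6.32, 9.52 and 7.72 FPKM with the inhibitor and 3.78, 3.74 and 4.09 FPKM with DMSO, without overlap (log2 fold change 0.85, SE 0.15, limma adjusted p = 0.0167). DAXX, which deposits the histone variant H3.3 with ATRX, fell. It had 21.5, 15.7 and 19.6 FPKM with the inhibitor and 28.0, 27.2 and 30.0 FPKM with DMSO, also without overlap (log2 fold change -0.57, SE 0.14, limma adjusted p = 0.0384). When 1 library at a time was dropped, KDM4B kept the call in 3 fits of 6 and DAXX in 1.

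TRIM28, the scaffold that the KRAB domain binds, had 63.8, 63.2 and 69.3 FPKM with the inhibitor and 71.0, 67.9 and 84.3 FPKM with DMSO. The groups overlapped, and the log2 fold change was -0.18 (95% interval -0.49 to 0.13, limma adjusted p = 0.363). SETDB1, which places H3K9me3, had 5.97, 5.98 and 5.63 FPKM with the inhibitor and 6.56, 7.46 and 7.06 FPKM with DMSO. All 3 inhibitor values were below the DMSO values, and the log2 fold change was -0.23 (95% interval -0.47 to 0.02, limma adjusted p = 0.171). Without inhibitor replicate 2, 5 genes of the list were called (15.2%), beside 40.6% of all genes tested; CBX5, ATRX and KDM1A, named after their values were seen, joined KDM4B and DAXX. CBX5 (HP1 alpha) had 32.0, 67.3 and 30.5 FPKM with the inhibitor and 20.2, 19.96 and 17.9 FPKM with DMSO, and inhibitor replicate 2 was again far above the other 2.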

How the data were processed

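RNA-seq of 6 libraries, 3 per group, was used. The authors deposited 1 table of FPKM values per gene with gene coordinates and names, on hg38 per the submitters' processing notes; no source used here gives the aligner, the counter, its strand setting or the treatment of reads that fit several genes. Reads shared among ZNF paralogs are thus uncertain, and 27 of the 117 tested members overlap another tested gene (18 on the same strand, 12 on the opposite strand). FPKM times gene length gave whole reads for 100% of values within 0.01 reads.

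Genes that reached 1 FPKM in at least 3 libraries were tested on log2(FPKM + 1) with limma 3.58.1 in R 4.3.3 (moderated test with a mean-variance trend, two-sided, Benjamini-Hochberg over all 13578 genes, threshold 0.05). All other steps used Python 3.11.15. The fit was tried on simulated reads with the same spread in every library. No simulated library stood apart as inhibitor replicate 2 did, so this does not show how the fit handles such a library. Fingers and KRAB A boxes came from translated coding sequences of GENCODE 29, in which all 58735 genes had the same coordinates, since no protein table was used here. Promoters came from RefSeq.

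The members and lists were chosen with earlier results of these data known. Genes were named by rule: genes of known role, the 6 members with the highest DMSO mean, up to 10 called members in each direction, members that lost their call without inhibitor replicate 2 (none did), and up to 4 called genes of the silencing list.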

Additional observations from a re-analysis of the deposited data

How the results depend on the processing

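The count of 8 called members was within 1.5 times under other pseudocounts (8), quantile normalization (8), TPM scaling (9), no mean-variance trend (8), a robust prior (8) and removal of a gene length trend (12). It was 4 (2 higher and 2 lower) with no filter, 5 of 16 tested at a filter of 5 FPKM, 14 with protein-coding genes only, 17 with length and GC trends removed, 14 in limma-voom on whole reads and 2 at a threshold of 0.01. Leaving out 1 library gave 2 to 20, with 20 without inhibitor replicate 2, 4 without either other inhibitor library and 2 without any DMSO library. Without inhibitor replicate 2 it was 21 with the length trend removed and 39 in voom (added after seeing the data). The median of 0.01 ranged from 0.01 to 0.05 when 1 library was left out and was -0.26 at the filter of 5 FPKM, where the median of all genes was -0.14. The members' share minus that of genes of similar DMSO level was -10.6 percentage points, -17.0 without inhibitor replicate 2, -17.1 with voom besides, -10.8 in bins of the mean over all 6 libraries and -10.5 with the length trend removed. It was -11.3 against genes of similar length. Among the comparisons added after seeing the data, it was -9.01 against genes of similar GC content, -9.70 in voom with all libraries and -7.13 among genes with a DMSO mean of at least 1 FPKM. The silencing list's count of 2 was 1 under quantile normalization, TPM scaling and the replicate block, 5 with length and GC trends removed, 0 at 0.01, 0 to 5 when 1 library was left out, and 5 (length trend) and 11 (voom) without inhibitor replicate 2. ZNF304 (0.07) ranged from -0.083 to 0.16 when 1 library was left out (-0.083 without inhibitor replicate 2, -0.033 without DMSO replicate 1), and without inhibitor replicate 2 was -0.078 with the length trend removed and -0.10 in voom. ZNF121 (0.14) ranged from -0.25 to 0.39 when 1 library was left out, and was -0.25 without inhibitor replicate 2 also with the length trend removed and in voom. PRMT5, ZNF302 and ZNF114 kept direction and call in all 22 settings. Groups of genes numbered 20 at a gap of 0.5 Mb, instead of 16. The cause of these changes was not tested, apart from the fewer genes at the stricter filter.

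Same-numbered libraries correlated by -0.0179, 0.157 and 0.248 in their deviations from group means, so the numbers were not taken as pairs, and not every library correlated best with its own number. With the replicate block 6 members and 1 gene of the silencing list were called.

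The median tested member had 146 to 173 reads per library. The voom interval reached beyond 2-fold for 27 of 103 uncalled members with all 6 libraries, while 73 of 78 stayed within it without inhibitor replicate 2. These sets of uncalled members differ, and voom was not run without any other library. Whether that library widened the intervals was therefore not tested.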
